A study of Mus musculus with 8 samples.

Results

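Interferon-stimulated effector genes are the genes whose products carry out the antiviral state, apart from the sensors, the IRF and STAT factors, the oligoadenylate synthetases, the GTPases other than Mx and the antigen presentation genes of the same response. They were chosen by gene symbol, with earlier results of these data known, as a list of 37 classical members. All are listed among the 24411 genes of the deposited table. RNA was sequenced from mouse liver hepatocytes, the cells that make up most of the liver, harvested 2 days after plating. There were 4 libraries from conditional knockout mice, which lacked Taf2 in hepatocytes, and 4 from wild-type (WT) mice. Taf2 encodes a subunit of TFIID, a general transcription factor that sits on core promoters before RNA polymerase II arrives. The sources used here do not give the Cre driver, the strain, the age of the animals or whether each library came from a separate animal, so p-values measure the spread between these libraries, which may be technical.

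As background, type I and type III interferons bind receptors whose JAK kinases activate a complex of transcription factors that holds STAT2 and IRF9 and enters the nucleus. This complex binds the interferon-stimulated response element, a paired GAAA motif in the promoters of the effector genes. The effector proteins block viral entry, translation, nucleotide use, assembly and release, and some, such as Usp18, restrain the pathway itself. Hepatocytes respond to type I interferons, as do Kupffer cells, the macrophages of the liver.

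Of the 37 genes, 35 had enough reads to be tested, 33 of them were higher in the knockout, 1 (Ifit2) was lower and 1 (Ifitm2) did not pass (edgeR's quasi-likelihood test, Benjamini-Hochberg adjusted p under 0.05 over 12122 genes). Across all tested genes 61.4% were called in either direction, 30.2% higher and 31.2% lower. The median log2 fold change, knockout over wild type, was 0.99 over the 35 members and -0.0035 over all tested genes. A log2 fold change of at least 1 was reached by 17 of the 35 members, against 6.9% of all tested genes called higher by that much. Every knockout library lay above every wild-type library in the 33 members called higher, against 26.9% of all tested genes. The same held for Mx1 and Epsti1, which were not tested, giving 35 of the 37 genes. Ifit2 alone had every knockout library below every wild-type library, against 27.8% of all tested genes. Sp100 and Phf11d passed the filter on low counts only through the knockout libraries and so had to differ. The other 33 tested members had enough reads in every wild-type library, and of these 31 were higher, 1 was lower and 1 did not pass, with a median of 0.96.

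**Figure D1:**
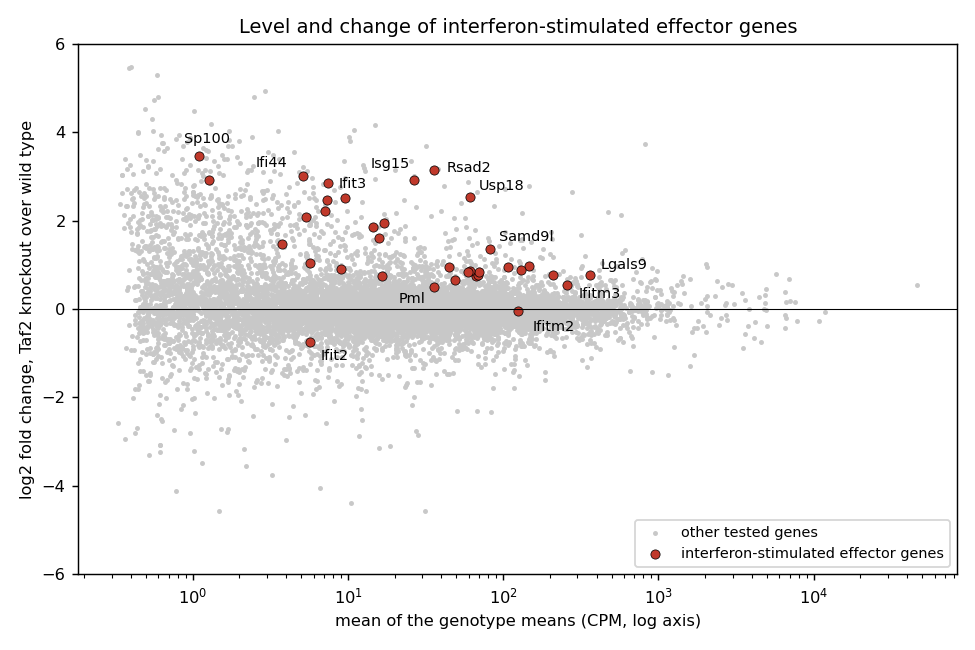
Log2 fold change, knockout over wild type (vertical axis), against the mean of the genotype means in CPM (counts scaled to the size of each library, horizontal log axis) for 12122 tested genes, with the 35 tested interferon-stimulated effector genes as large points. Most members lie above 0, between 0.50 for Pml and 3.47 for Sp100, while Ifit2 lies below at -0.74 and Ifitm2 at -0.039.

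The response element core, GAAA followed by any 2 bases and GAAA again, was looked for on both strands of RefSeq promoter windows (GRCm38.p6, the assembly also named mm10), which run from 250 bases before to 50 bases after each listed start. Windows were listed for 30 of the 37 genes, and 12 of these (40%) held the core, against 3.99% of 27025 genes with a window and 3.69% of the 9283 tested genes among them. They were the windows of Isg15, Ifit1, Ifit3, Eif2ak2, Ddx60, Ifitm2, Ifitm3, Bst2, Rsad2, Trim21, Trim30a and Lgals9. The tested members with a core had a median log2 fold change of 1.53 (n = 12, from -0.039 to 3.14) and those without one had 0.96 (n = 17, from -0.74 to 3.47), so the ranges overlapped. The group without a core includes Sp100, at 3.47, and Phf11d, which passed the filter on low counts only through the knockout libraries. A match is a run of letters and not a shown binding site. The palindrome TTCNNNGAA, which STAT dimers bind, was found for 23.3% of the members with a window, 9.55% of all genes and 8.26% of tested genes. For TATAAA on either strand the shares were 10%, 15.7% and 9.17% in the same order.

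Windows are printed for Isg15, which had 3 overlapping cores, and for the clustered genes Ifit1, Ifit3 and Ifit2, of which Ifit2 went the other way. Those of the related pair Ifitm3 and Ifitm2, of which Ifitm2 did not pass, are printed too. Every window reads 5′ to 3′ on the gene's strand, and capitals mark the core on either strand (on the other strand it reads TTTC, 2 bases, TTTC).
Isg15, chr4:156200769-156201068, minus strand: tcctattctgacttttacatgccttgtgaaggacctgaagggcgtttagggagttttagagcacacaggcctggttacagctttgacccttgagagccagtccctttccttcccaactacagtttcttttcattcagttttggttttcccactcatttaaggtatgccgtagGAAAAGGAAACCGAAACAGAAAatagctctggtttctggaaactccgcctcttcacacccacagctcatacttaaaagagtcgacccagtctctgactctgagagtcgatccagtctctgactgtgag
Ifit1, chr19:34640639-34640938, plus strand: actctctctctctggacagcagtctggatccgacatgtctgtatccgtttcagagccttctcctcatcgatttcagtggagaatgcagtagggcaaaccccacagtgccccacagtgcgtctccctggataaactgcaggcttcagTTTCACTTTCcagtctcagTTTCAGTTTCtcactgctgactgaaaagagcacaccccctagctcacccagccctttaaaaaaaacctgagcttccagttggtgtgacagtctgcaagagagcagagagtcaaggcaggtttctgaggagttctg
Ifit3, chr19:34583279-34583578, plus strand: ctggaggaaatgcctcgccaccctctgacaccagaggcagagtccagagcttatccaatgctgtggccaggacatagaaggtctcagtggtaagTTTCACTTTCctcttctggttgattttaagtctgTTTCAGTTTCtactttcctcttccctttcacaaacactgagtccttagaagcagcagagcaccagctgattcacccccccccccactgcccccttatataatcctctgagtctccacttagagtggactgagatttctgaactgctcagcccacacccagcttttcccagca
Ifit2, first listed start, chr19:34550444-34550743, plus strand: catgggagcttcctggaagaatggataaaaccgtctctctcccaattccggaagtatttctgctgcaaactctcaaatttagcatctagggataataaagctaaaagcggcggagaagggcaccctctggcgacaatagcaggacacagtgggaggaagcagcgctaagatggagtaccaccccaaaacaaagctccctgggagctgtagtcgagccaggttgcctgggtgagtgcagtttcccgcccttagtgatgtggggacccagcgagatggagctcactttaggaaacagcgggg
Ifit2, next listed start, chr19:34550838-34551137, plus strand: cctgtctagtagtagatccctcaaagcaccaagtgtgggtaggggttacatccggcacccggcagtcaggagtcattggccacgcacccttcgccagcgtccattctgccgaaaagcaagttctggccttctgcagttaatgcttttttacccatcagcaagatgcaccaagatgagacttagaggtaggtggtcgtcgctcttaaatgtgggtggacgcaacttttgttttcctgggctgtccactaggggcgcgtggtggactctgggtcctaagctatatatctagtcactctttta
Ifitm3, chr7:141010695-141010994, minus strand: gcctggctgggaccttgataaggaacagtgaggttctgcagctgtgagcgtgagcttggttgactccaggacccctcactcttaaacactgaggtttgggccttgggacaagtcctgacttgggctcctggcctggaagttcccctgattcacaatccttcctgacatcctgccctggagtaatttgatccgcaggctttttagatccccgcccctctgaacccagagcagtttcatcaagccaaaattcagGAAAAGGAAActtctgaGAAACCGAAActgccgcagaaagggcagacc
Ifitm2, chr7:140955912-140956211, minus strand: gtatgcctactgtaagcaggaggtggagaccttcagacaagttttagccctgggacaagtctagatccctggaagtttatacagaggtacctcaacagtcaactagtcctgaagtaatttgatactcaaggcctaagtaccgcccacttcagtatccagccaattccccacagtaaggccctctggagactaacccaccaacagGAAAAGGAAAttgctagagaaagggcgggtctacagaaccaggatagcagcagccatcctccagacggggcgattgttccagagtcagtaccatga
The cores of Isg15 began 78, 72 and 66 bases before its start and ran into each other. Those of Ifit1 began 104 and 85 bases before the start, and those of Ifit3 156 and 122 bases before it. Ifitm3 had its cores at bases 3 and 20 after the start, and Ifitm2 had 1 core, 46 bases before the start. Neither Ifit2 window held a core, which says only that these letters are not in these windows. In the annotated transcript of Ifit2 the first exon lies 19196 bases before the second.

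The genes of the ISG15 system were all higher in the knockout. Isg15 encodes a ubiquitin-like protein that is attached to other proteins, Uba7 encodes its activating enzyme, Herc6 its main ligase in mice, and Usp18 the protease that removes it and also restrains the type I receptor. Isg15 stood at 52.2, 37.3, 53.0 and 46.5 CPM in knockout libraries 1 to 4, against 5.81, 6.37, 6.003 and 6.93 CPM in wild-type libraries 1 to 4. Every knockout library lay above every wild-type library, and knockout library 2 was the lowest of its genotype. The log2 fold change was 2.91 (SE 0.10, edgeR adjusted p = 4.68e-15). Usp18 had 113, 97.7, 108 and 97.6 CPM in the knockout libraries and 18.2, 17.45, 19.1 and 17.5 CPM in the wild-type libraries. Its groups lay far apart relative to their spread, with a log2 fold change of 2.53 (SE 0.054, edgeR adjusted p = 2.3e-18), the smallest adjusted p of the 35. The conjugating side moved less. Uba7 averaged 7.63 ± 0.80 CPM in the knockout and 3.71 ± 0.19 CPM in the wild type (SD, n = 4 each; log2 fold change 1.04), and Herc6 20.9 ± 0.49 and 12.4 ± 0.90 CPM in the same order (0.76).

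Among genes for RNA-binding, RNA-modifying and translation-blocking proteins, 7 of 8 rose and Ifit2 fell. Ifit1, Ifit2 and Ifit3 encode tetratricopeptide proteins that bind viral RNA and act in complexes with each other, and their genes lie in 1 cluster on chromosome 19. Ifit3 (chr19:34583531-34588731, plus strand, mm10) had 14.01, 11.7, 14.5 and 11.9 CPM in the knockout libraries and 1.26, 1.85, 2.04 and 2.11 CPM in the wild-type libraries. Its knockout values were several times the highest wild-type value, and the log2 fold change was 2.86 (SE 0.13, edgeR adjusted p = 1.53e-13). The estimated counts of Ifit3 were not whole in any of the 8 libraries, which happens where reads match more than 1 gene, so its values are uncertain. Its near copy Ifit3b, not whole in 8 libraries either, averaged 3.48 ± 0.79 CPM in the knockout and 0.525 ± 0.20 CPM in the wild type (log2 fold change 2.72). Ifit1 averaged 16.2 ± 1.42 and 2.83 ± 0.63 CPM in knockout and wild type (log2 fold change 2.52, SE 0.11).

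Ifit2 lies next to Ifit3 (chr19:34550694-34576419, plus strand, 7111 bases away), and it went the other way. It had 4.70, 3.70, 4.28 and 4.26 CPM in the knockout libraries and 6.985, 7.73, 7.88 and 5.95 CPM in the wild-type libraries, or 74 to 111 counts in the knockout and 127 to 161 in the wild type. All 4 knockout values lay below the lowest wild-type value. The log2 fold change was -0.74 (SE 0.11, edgeR adjusted p = 6.82e-06), and it stayed between -0.82 and -0.68 under the alternatives tried. The estimated counts of Ifit2 were whole in every library.

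The remaining genes of this role rose by different amounts. Samd9l, whose product represses translation and restricts poxviruses, had 117, 123, 119.9 and 114 CPM in the knockout libraries and 40.65, 50.6, 47.1 and 45.5 CPM in the wild-type libraries (log2 fold change 1.37, SE 0.050). Ddx60, a helicase-like gene, and Isg20, which encodes an exonuclease of single-stranded RNA, rose by 2.08 (SE 0.12) and 1.47 (SE 0.15) on the log2 scale from low levels, 2.07 ± 0.31 and 1.99 ± 0.21 CPM in the wild type. Eif2ak2 encodes PKR, the kinase that stops translation when it binds double-stranded RNA, and Adar encodes the enzyme that edits adenosine to inosine in such RNA. Eif2ak2 averaged 87.2 ± 1.42 CPM in the knockout and 51.1 ± 3.50 CPM in the wild type (log2 fold change 0.77, SE 0.043), and Adar 83.55 ± 1.82 and 49.6 ± 0.97 CPM (0.75, SE 0.035). In Adar the knockout libraries lay between 81.4 and 85.9 CPM and the wild-type libraries between 48.5 and 50.8 CPM.

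Of the genes for membrane proteins that act on viral entry and release, 3 of 4 rose and Ifitm2 did not pass. Ifitm3, which encodes a protein that blocks fusion in endosomes, had 328, 294, 303 and 306 CPM in the knockout libraries and 206, 205, 209 and 223 CPM in the wild-type libraries. The groups did not overlap, and the log2 fold change was 0.55 (SE 0.040, edgeR adjusted p = 3.29e-10). Its relative Ifitm2, on the same strand of chromosome 7 at a distance of 53598 bases, had 124, 119, 125 and 125 CPM in the knockout libraries and 129.8, 124, 124 and 129.6 CPM in the wild-type libraries. These groups overlapped, and no other member's did. The log2 fold change was -0.039 (SE 0.035, edgeR adjusted p = 0.35), with adjusted p from 0.242 to 0.734 under the alternatives. The estimated counts were not whole in 1 library for each gene of the pair. Bst2, the gene for tetherin, which holds budding virus particles on the cell surface, averaged 196 ± 8.11 CPM in the knockout and 99.0 ± 1.63 CPM in the wild type (log2 fold change 0.99, SE 0.038). Rtp4 encodes a receptor transporter protein of the secretory pathway, and it had 29.4, 25.2, 27.45 and 25.9 CPM in the knockout libraries and 5.90, 6.999, 7.255 and 7.78 CPM in the wild-type libraries. It changed most in this role, with a log2 fold change of 1.96 (SE 0.080, edgeR adjusted p = 3.95e-14), although Rtp4 overlaps Masp1 on the opposite strand and the strand setting of the counts is not known.

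**Figure D2:**
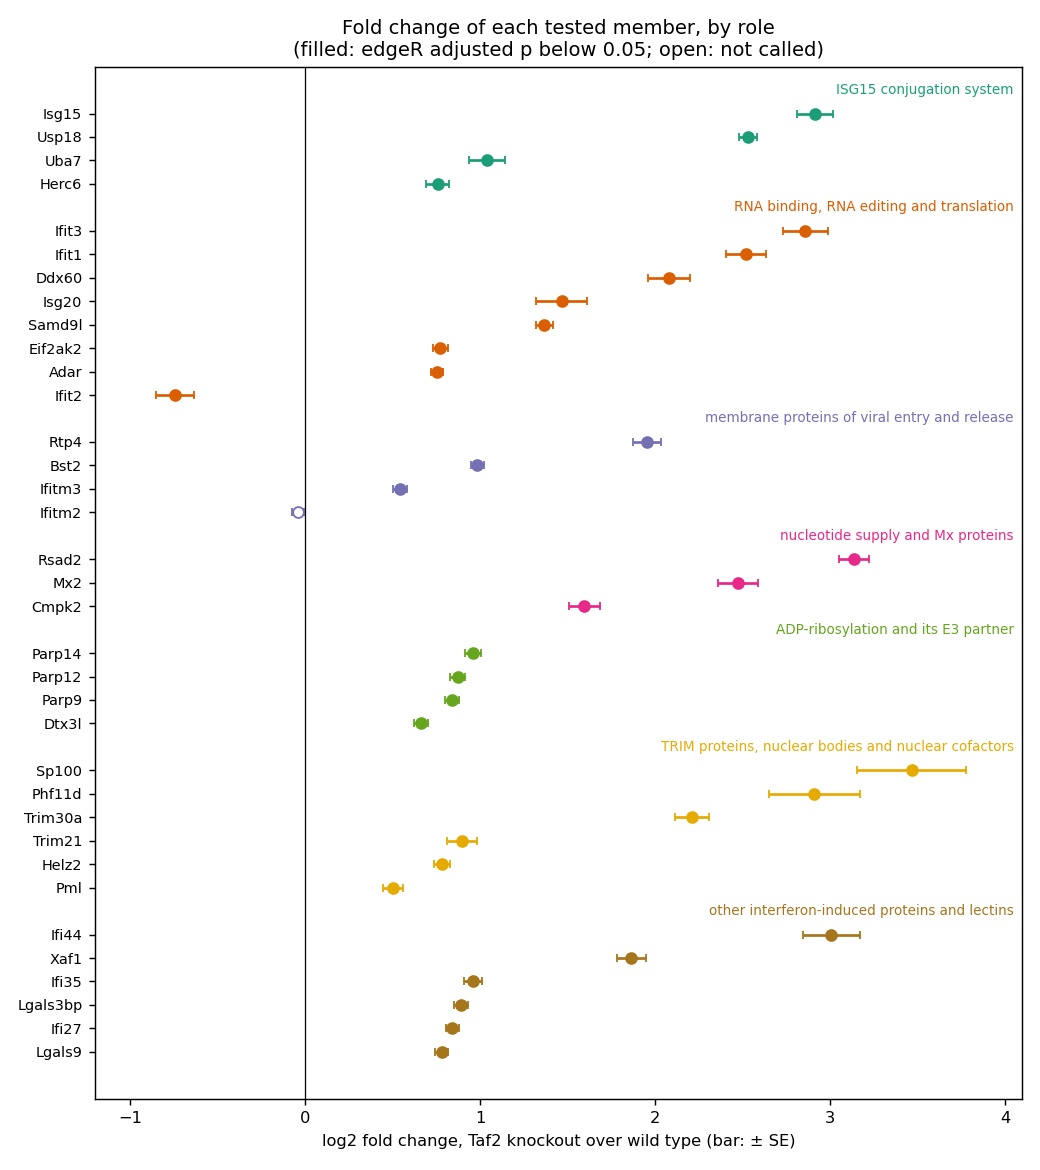
Log2 fold change, knockout over wild type, of each of the 35 tested members with its SE (bars), grouped by role, with filled points for edgeR adjusted p under 0.05. Ifitm2 is the open point at -0.039 and Ifit2 the point at -0.74, while the 4 ADP-ribosylation genes lie close together between 0.66 and 0.96.

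Rsad2 and Cmpk2 are neighbours on chromosome 12 that point away from each other, 12751 bases apart. Rsad2 encodes viperin, which makes a chain-terminating form of CTP, and Cmpk2 a mitochondrial kinase of pyrimidine nucleotides. Rsad2 had 68.6, 55.5, 72.5 and 59.0 CPM in the knockout libraries and 7.29, 6.90, 6.99 and 7.87 CPM in the wild-type libraries. Its lowest knockout value was far above its highest wild-type value, and the log2 fold change was 3.14 (SE 0.085, edgeR adjusted p = 1.13e-16). Cmpk2 had 24.1, 20.9, 24.55 and 25.2 CPM in the knockout libraries and 7.90, 6.37, 9.08 and 8.06 CPM in the wild-type libraries (log2 fold change 1.60, SE 0.087). Both neighbours were higher in the knockout with no overlap between the groups.

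The Mx genes encode dynamin-like proteins that block virus replication, Mx1 in the nucleus and Mx2 in the cytoplasm in mice. Mx2 averaged 12.4 ± 1.41 CPM in the knockout and 2.23 ± 0.23 CPM in the wild type (log2 fold change 2.47, SE 0.11). Mx1 was too low to be tested, at 7, 16, 7 and 13 counts in the knockout libraries and 4, 2, 0 and 1 counts in the wild-type libraries. Its summed level was 5.88 times higher in the knockout. The estimated counts of Mx1 and of Mx2 were not whole in 5 libraries each. With no filter on low counts Mx1 passed (edgeR adjusted p = 0.000258 over 16533 genes).

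Genes of ADP-ribosylation formed the narrowest group. Parp9 and Dtx3l encode partners, an ADP-ribosyltransferase and a ubiquitin ligase, and their genes start head to head on chromosome 16 and overlap by 682 bases. Parp12 and Parp14 encode enzymes that attach single ADP-ribose units. Parp14 had 146, 139.5, 138 and 142.5 CPM in the knockout libraries and 66.2, 78.01, 76.8 and 70.7 CPM in the wild-type libraries (log2 fold change 0.96, SE 0.045). Parp9 had 77.8, 77.04, 72.1 and 75.7 CPM in the knockout libraries and 40.9, 44.4, 42.3 and 41.65 CPM in the wild-type libraries (0.84, SE 0.039). For Dtx3l the knockout values were 63.0, 59.6, 58.3 and 58.2 CPM and the wild-type values 37.3, 38.5, 38.4 and 36.8 CPM (0.66, SE 0.041). None of these groups overlapped, although reads from the stretch that Parp9 and Dtx3l share cannot be told apart without the strand. Parp12 averaged 79.1 ± 3.76 and 43.3 ± 2.37 CPM in knockout and wild type (0.87, SE 0.044). None of the 4 reached a log2 fold change of 1.

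TRIM proteins, PML body proteins and nuclear cofactors were higher in 6 of 6 cases. Of these, Sp100 and Phf11d passed the filter on low counts only through the knockout libraries and so had to differ. Sp100, a component of PML nuclear bodies, had 2.37, 1.40, 2.38 and 1.895 CPM in the knockout libraries and 0.260, 0.194, 0.157 and 0.0937 CPM in the wild-type libraries. This rested on 28 to 56 counts in the knockout and 2 to 6 counts in the wild type, and the log2 fold change of 3.47 had a wide error (SE 0.31, edgeR adjusted p = 7.3e-09). Pml, which encodes the scaffold of the same bodies, had the smallest rise of the list, 42.2 ± 2.35 CPM in the knockout and 29.9 ± 2.36 CPM in the wild type (0.50, SE 0.056). Helz2, a helicase gene whose product works as a nuclear receptor cofactor, had 283, 262, 259.6 and 249 CPM in the knockout libraries and 144, 165, 156 and 149.6 CPM in the wild-type libraries (0.78, SE 0.045). Trim30a, known as a brake on NF-κB signalling in mice, averaged 11.8 ± 0.91 and 2.54 ± 0.19 CPM in knockout and wild type (2.21, SE 0.099), with counts that were not whole in any of the 8 libraries. Trim21, an antibody receptor of the cytosol, averaged 11.7 ± 0.75 and 6.28 ± 0.63 CPM (0.90, SE 0.086). Phf11d, a PHD finger gene with counts not whole in 7 libraries, averaged 2.26 ± 0.43 and 0.295 ± 0.087 CPM (2.91, SE 0.26).

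Among the remaining induced genes, 6 of 6 tested members rose. Ifi44 had 9.69, 7.145, 10.6 and 8.86 CPM in the knockout libraries and 0.781, 1.17, 1.46 and 1.17 CPM in the wild-type libraries (log2 fold change 3.01, SE 0.16, edgeR adjusted p = 3.07e-12). Lgals9, the galectin-9 gene, had 496, 441, 445.5 and 453 CPM in the knockout libraries and 267, 265, 267 and 269 CPM in the wild-type libraries (0.78, SE 0.038). The wild-type libraries of Lgals9 differed among themselves by less than those of any other tested member, with a coefficient of variation of 0.643%. Xaf1, whose product counters the apoptosis inhibitor XIAP, averaged 22.8 ± 1.88 and 6.24 ± 0.54 CPM in knockout and wild type (1.87, SE 0.081). Ifi35 (0.96), Lgals3bp (0.89), a secreted galectin ligand gene, and Ifi27 (0.84) rose by similar amounts. Epsti1 had 5, 4, 4 and 8 counts in the knockout libraries and 0 in each wild-type library. Set against the limit that a count of 0 allows, 3 counts over the wild-type group, its level was at least 6.7-fold higher in the knockout, and it passed only with no filter on low counts (edgeR adjusted p = 0.000101 over 16533 genes).

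**Figure D3:**
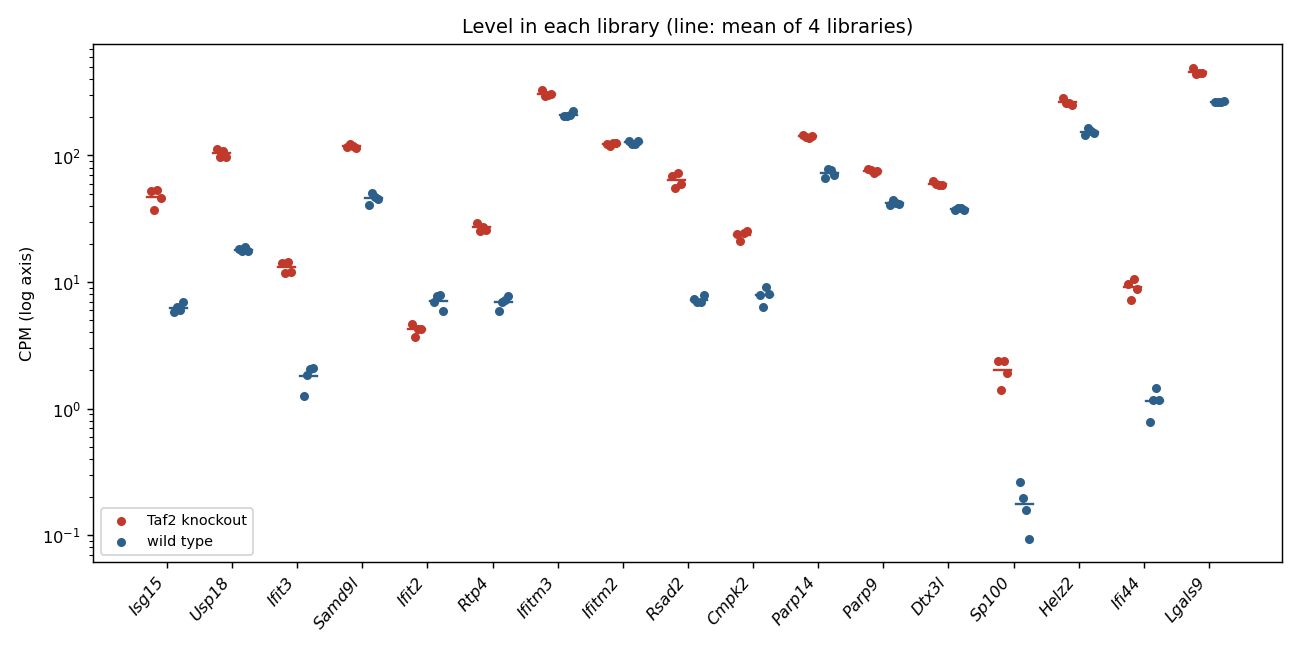
CPM (log axis) of 17 members in each of the 4 knockout libraries (left of each pair) and the 4 wild-type libraries (right), with a line at each mean. The groups separate in every gene shown except Ifitm2, and Ifit2 has its knockout points, 3.70 to 4.70 CPM, below its wild-type points.

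Levels differed widely between members once divided by transcript length. As CPM per kilobase, Ifitm3 was the highest in the knockout at 454, followed by Lgals9 at 295, Bst2 at 248 and Ifitm2 at 188. In the wild type Ifitm3 stood at 311 CPM per kilobase, Ifitm2 at 194, Lgals9 at 172 and Bst2 at 125, so Ifitm2 had rank 2 there and rank 4 in the knockout. Isg15 was at 62.5 CPM per kilobase in the knockout and 8.31 in the wild type, which is rank 7 and rank 16 of 37. Rsad2 was at 16.9 and 1.92, rank 17 and rank 25. Members with more reads had smaller changes. The 19 tested members with a mean of at least 20 CPM had a median log2 fold change of 0.84 (from -0.039 to 3.14), and the 16 below it a median of 2.02 (from -0.74 to 3.47). The lower group includes Sp100, at 3.47, and Phf11d, which passed the filter on low counts only through the knockout libraries. These medians describe genes of the same libraries and carry no test.

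The members also varied together between libraries of the same genotype. Knockout library 1 was the highest of its genotype in 19 of the 35 tested members and the lowest in 0. Knockout library 2 was the highest in 1 and the lowest in 19. Over all tested genes, knockout library 1 was the highest in 21.3% and the lowest in 21.2%, and knockout library 2 in 26.2% and 26.6%. Relative to the mean of the 4 knockout libraries, the median member stood at 105.2%, 95.4%, 102.4% and 97.5% in libraries 1 to 4, while the median of all tested genes stood between 99.9% and 100%. In wild-type libraries 1 to 4 the median member stood at 97.3%, 100.2%, 100% and 102.3%. The median of all tested genes stood between 99.8% and 100.2% there. The shifts of the members are small beside the difference between the genotypes. The coefficient of variation of single members ran from 1.62% (Eif2ak2) to 23.2% (Sp100) in the knockout and from 0.643% (Lgals9) to 39.6% (Sp100) in the wild type. Summed macrophage markers, described below, were at 309.4, 281.7, 309.4 and 290.3 CPM in knockout libraries 1 to 4, so that library 2 was lowest there too. Summed endothelial markers were at 207, 210.6, 217.3 and 209.6 CPM in the same libraries, lowest in library 1, where most members were highest. In wild-type libraries 1 to 4 macrophage markers summed to 135.5, 152.5, 121.7 and 132.1 CPM, an order that differed from that of the members' medians. Cd68 alone gave 84.95, 100.3, 72.45 and 78.6 CPM of these sums, and without it they lay between 49.2 and 53.5 CPM. Endothelial markers summed to 77.8, 88.1, 84.8 and 84.2 CPM in the same wild-type libraries. The part of these markers in the shifts was not tested. Taf2 was at 13.9, 15.7, 13.4 and 12.7 CPM in knockout libraries 1 to 4, highest in library 2 and lowest in library 4. The part of Taf2 in the shifts was not tested.

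**Figure D4:**
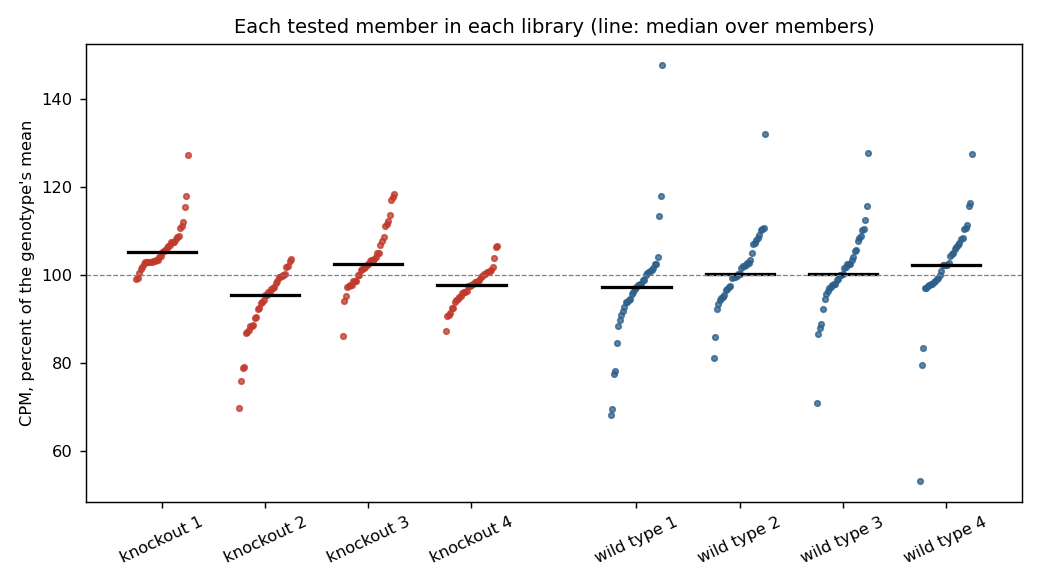
CPM of each of the 35 tested members in each library as a percentage of the mean of its genotype, with a line at the median over members. Knockout library 1 has its median at 105.2% and knockout library 2 at 95.4%.

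Upstream of the effector genes, interferon transcripts were at or near 0. Of 20 genes for type I and type III interferons, 16 had no read in any of the 8 libraries, and Ifng, the type II interferon gene, had none either. A count of 0 in a library allows up to 3 counts, or 0.127 to 0.15 CPM in the knockout libraries and 0.13 to 0.157 CPM in the wild-type libraries. Ifnk had between 3 and 10 counts per library, and Ifnb1 at most 2. The 20 genes summed to between 0.173 and 0.400 CPM in the knockout and between 0.157 and 0.535 CPM in the wild type. None could be tested, and transcripts present before harvest are not seen in these libraries.

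Of the 6 interferon receptor genes, 0 rose and 2 fell, against 30.2% of all tested genes called higher and 31.2% lower. Ifnar1, a subunit of the type I receptor, averaged 56.0 CPM in the knockout and 74.3 CPM in the wild type (log2 fold change -0.41, SE 0.037, edgeR adjusted p = 9.59e-09). Ifngr2, of the type II receptor, was at 66.5 CPM in the knockout and 76.8 CPM in the wild type (-0.21, SE 0.052), and Ifngr1 at 208 and 212.5 CPM (edgeR adjusted p = 0.49). Of the 5 genes listed between the receptors and the nucleus, Stat2 and Irf9 rose, Tyk2 fell, and the kinase genes Jak1 and Jak2 did not pass. Stat2 averaged 113 CPM in the knockout and 74.3 CPM in the wild type (0.60, SE 0.038), and Irf9 45.75 and 24.6 CPM (0.90, SE 0.061). Both encode parts of the complex that binds the response element and are themselves interferon-stimulated. Of 9 genes for pathway inhibitors, 3 rose and 2 fell, against the same 30.2% and 31.2% of all tested genes. Of the 8 with enough reads in every wild-type library, 2 rose and 2 fell. The feedback inhibitor gene Socs3 was at 8.67 CPM in the knockout and 4.62 CPM in the wild type (0.91, SE 0.11), and Ptpn2, a phosphatase gene, at 33.5 and 23.5 CPM (0.51, SE 0.057). Ptpn11 was at 317 and 355 CPM (-0.16, SE 0.036).

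Interferon-stimulated genes of other families moved with the effector genes. Of 32 such genes 30 could be tested, 29 rose, 0 fell, and Tap2 did not pass (edgeR adjusted p = 0.5), against 30.2% of all tested genes called higher. Of the 29, 4 passed the filter on low counts only through the knockout libraries and so had to differ, and of the 26 with enough reads in every wild-type library 25 rose. The transcription factor gene Irf7 rose by 2.40 (SE 0.065), and the oligoadenylate synthetase family genes Oasl1 and Oas1a by 1.43 (SE 0.045) and 3.27 (SE 0.12). B2m, the class I light chain gene, averaged 1065 CPM in the knockout and 693 CPM in the wild type (0.62, SE 0.040).

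**Figure D5:**
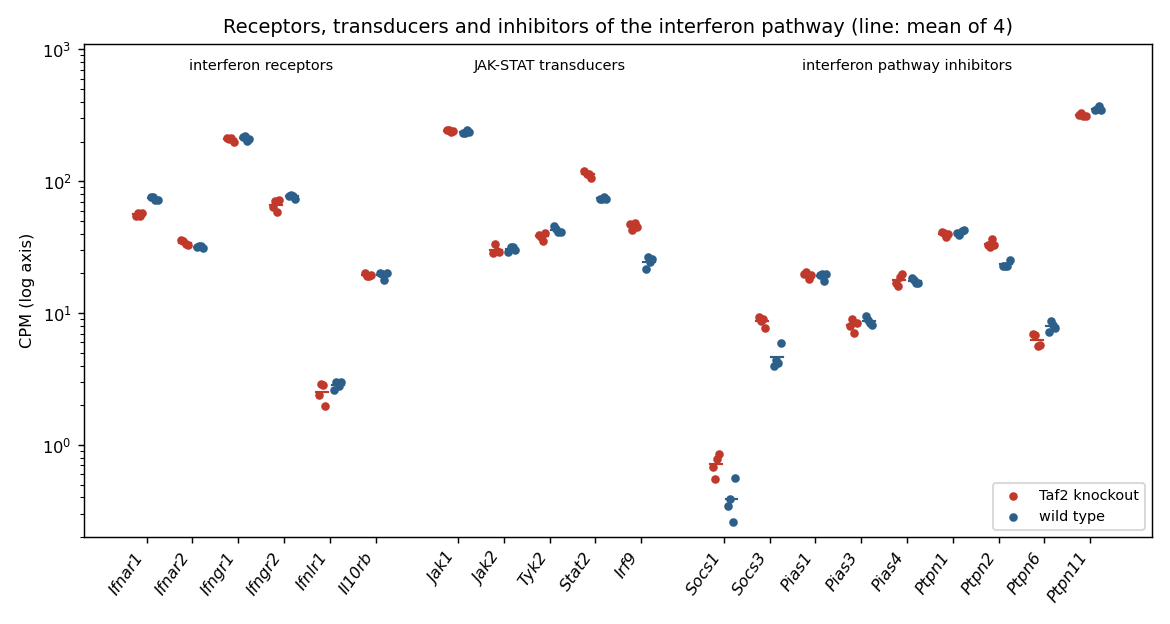
CPM (log axis) of interferon receptor, JAK-STAT and inhibitor genes in each of the 4 knockout libraries (left of each pair) and the 4 wild-type libraries (right), with lines at the means. Stat2 and Irf9 have all knockout points above all wild-type points, and Ifnar1 has them below.

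Total counts ran from 20287023 to 23933589 in the knockout libraries and from 18947059 to 22824568 in the wild-type libraries, and Taf2 itself from 269 to 329 counts in the knockout and from 865 to 979 in the wild type (log2 fold change -1.66, edgeR adjusted p = 9.03e-15), so every library matched its label. Hepatocyte markers were abundant in both genotypes. Of 10 such markers 5 rose, 4 fell and 1 did not pass, and they summed to between 67520 and 73810 CPM in the knockout and between 51340 and 55200 CPM in the wild type. Without Alb, the albumin gene, the sums were 14240 to 14880 CPM in the knockout and 14890 to 15180 CPM in the wild type. Of all tested genes 30.2% were called higher and 31.2% lower, the shares to set beside the hepatocyte counts and those of the lists below. Markers of other liver cells were detected too, and several lists moved in the same direction as the effector genes. Of 18 macrophage and Kupffer cell markers 14 were tested and 13 rose, their sum lay between 282 and 309 CPM in the knockout and between 122 and 152.5 CPM in the wild type, and none was at 0 in all libraries of a genotype. Adgre1 and Itgam, both among the 13, passed the filter only through the knockout libraries and so had to differ, and of the 12 with enough reads in every wild-type library 11 rose. Cd68 alone gave 172.5 CPM of the mean knockout sum and 84.1 CPM of the mean wild-type sum. Without Cd68 the sums were 122 to 129 CPM in the knockout and 49.2 to 53.5 CPM in the wild type. Of 18 endothelial markers 15 were tested and 14 rose, with sums of 207 to 217 CPM in the knockout and 77.8 to 88.1 CPM in the wild type. Of the 14 endothelial markers with enough reads in every wild-type library 13 rose. Stellate cell and fibroblast markers rose in 12 of 15 tested cases and fell in 2, with sums of 175 to 189 CPM in the knockout and 204 to 224 CPM in the wild type. Without Tagln, which averaged 27.6 CPM in the knockout and 139 CPM in the wild type, the sums were 147 to 161 CPM in the knockout and 72.4 to 77.9 CPM in the wild type. Of these markers 5 passed the filter only through the knockout libraries and so had to differ, and of the 6 with enough reads in every wild-type library 4 rose and 2 fell. Cholangiocyte markers rose in 2 of 6 and fell in 4 (175 to 203.5 CPM in the knockout and 144 to 159.8 CPM in the wild type). Median log2 fold changes of the tested markers were 2.22 for macrophages and Kupffer cells, 1.70 for endothelium and 2.18 for stellate cells and fibroblasts. They were 0.17 for hepatocytes and -0.39 for cholangiocytes, against 0.99 for the tested effector genes. The medians of the macrophage, stellate cell and effector lists include genes that passed the filter only through the knockout libraries. Of the 15 tested stellate cell and fibroblast markers, 9 were under the filter in a wild-type library, so these medians are not on an equal footing. In bulk RNA, more cells of a type and more RNA per cell cannot be told apart. Which cells the effector transcripts came from, and the part of these markers in their rise, was not tested. Of 9 markers listed for plasmacytoid dendritic cells, strong producers of type I interferon, 4 were tested, of which Bst2 (itself an effector gene), Ly6d and Tcf4 rose and Il3ra fell. Without Bst2 the list summed to 120 to 139.6 CPM in the knockout and 65.1 to 76.9 CPM in the wild type, and Ly6d alone averaged 114.5 CPM in the knockout and 55.2 CPM in the wild type. Siglech, Ccr9 and Klk1 were at 0 in all 8 libraries. The 10 lymphocyte markers summed to at most 0.0947 CPM in the knockout and 0.104 CPM in the wild type. The 6 neutrophil markers in the table summed to at most 0.169 CPM in the knockout and 0.13 CPM in the wild type.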

How the data were processed

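The authors deposited an estimated count per gene and library, made with RSEM on mm10 per the submitters' processing notes. The sources used here give no RSEM version, aligner or strand setting. Per the labels' protocols, libraries were made with a TruSeq RNA kit and sequenced in 2 rounds. Per the file headers, genes are sets of RefSeq transcripts, and 2.85% of values were not whole (tolerance 0.005), as RSEM divides reads that match several genes. The 8 columns whose names match the sample descriptions were used, and 8 other columns, which match no sample, were not.

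Counts were rounded, filtered with filterByExpr (minimum count 10, minimum total 15), scaled by TMM and compared between genotypes by the quasi-likelihood test of edgeR without covariates (R 4.3.3, edgeR 4.0.16, limma 3.58.1). Adjusted p-values (Benjamini-Hochberg, threshold 0.05) cover all 12122 genes tested. CPM uses TMM-scaled library sizes. SEs were derived from the log2 fold change and its F statistic. Shares of all tested genes stand beside counts of members. Library pairs within a genotype differed beyond counting noise (chi-square per degree of freedom 3.19 to 8.7). In simulated data for the same comparison, with 200 changed among 12016 genes, 76% of 1.25-fold and 100% of 2-fold changes were recovered, with 16 false calls. In the real data 61.4% of tested genes were called, so these rates hold only for the simulated setting. Alternatives were other scalings (RLE, upper quartile), DESeq2 1.42.0, 2 other filters, a replicate block and leaving out each library. Coordinates and transcript lengths come from GENCODE M21 (mm10). Counting error limits low genes.

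The members, roles and gene lists were chosen with earlier results of these data known. All members were to be named, with values in every library for the largest change and highest level of each role, for members that were lower or not called, and for neighbouring genes. Up to 3 called genes and the most abundant one were taken per pathway list. Ifnk, Ifnb1, Ifng, Tyk2, Jak2, Tap2, Ifit3b, Adgre1, Itgam, Tagln, Ly6d, Tcf4, Il3ra, Klk1, Siglech and Ccr9 were chosen after their values were seen. So were the sums without Alb, Cd68 or Tagln. A pathway gene was taken off its list and is not reported here, while other listed genes that go unnamed are in the counts.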

Additional observations from a re-analysis of the deposited data

Results flagged for a closer look

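In 3 of 75 sets of 4 library values, 1 library stood apart from the other 3 by more than Dixon's 95% limit, and chance alone puts about 1 set in 20 past it. Eif2ak2 was at 45.9 CPM in wild-type library 1, against 52.4 to 53.3 CPM in the other wild-type libraries. Ddx60 was at 1.61 CPM in wild-type library 1, against 2.2 to 2.24 CPM in the others. Trim21 was at 10.6 CPM in knockout library 4, against 12.0 to 12.2 CPM in the other knockout libraries. Without the library concerned each gene kept its direction and its call.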

How the results depend on the processing

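Under 14 alternatives all 35 tested members kept the direction and the call given above, as did Taf2. The number of members called higher was 33 in every alternative except the one with no filter on low counts, where it was 35, and 1 member was called lower in each. Members with a log2 fold change of at least 1 numbered 16 to 19 when each library was left out in turn, 18 with upper-quartile scaling and 19 with no filter. Their median log2 fold change ran from 0.97 without knockout replicate 1 to 1.03 with no filter. Over all genes 7447 were called, 6890 with DESeq2, 8004 with no filter, and 7027 to 7257 with a library left out. Upper-quartile scaling moved the median of all genes to 0.020 and the split from 3663 higher and 3784 lower to 4001 higher and 3435 lower. A fit with the replicate number as a block called 7437 genes and 33 members higher. Libraries with the same number did not deviate together (correlations of -0.069 to 0.011 across genes). This gave no sign that the numbers pair the samples, but so few libraries cannot exclude it. Depth limits Mx1 and Epsti1, which could be tested only with no filter, and Sp100, whose wild-type libraries held 2 to 6 counts.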
